A study of Gallus gallus with 16 samples.

Results

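LCP2, SYK, CD247, PTPRC and CSF1R are 5 genes of blood leukocytes and macrophages. They were followed here in chicken embryos given nicotine or vehicle, in a dissected piece that held the spinal cord. They were picked by symbol from the 21357 identifiers of the authors' 5 comparison tables, of which 9225 carry a symbol. The picking was done with the results of all 5 comparisons in view, those of LCP2 and CSF1R at day 5 among them. Their fold changes and adjusted p-values are therefore given as a description of these libraries, and their adjusted p-values support nothing beyond it. LCP2 (ENSGALG00000002113), SYK (ENSGALG00000015216), CD247 (ENSGALG00000015441) and PTPRC (ENSGALG00000002192) also have a row in the count matrix, so 4 of the 5 can be shown library by library. CSF1R (ENSGALG00000005725) has no row under its identifier, and its values come from the authors' deposited tables alone.

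The study asked how nicotine and days of incubation bear on gene expression in the developing neural tube. Each of the 16 libraries came from 1 wild-type domestic chicken embryo, with 4 embryos in each of 4 groups, described by the labels as biological replicates. The groups were nicotine at day 7, vehicle at day 7, nicotine at day 5 and vehicle at day 5. Nicotine was nicotine hydrogen bitartrate at 30 ng/ml, scaled to the weight of the egg, and vehicle was sodium bitartrate monohydrate. Both went into the egg before incubation began, so all 4 groups were injected. The dissected piece held the spinal cord from mid neck to the rear of the forelimb, and may hold vessels, blood and tissue around the cord. In such bulk samples, fewer cells of a type and less RNA per cell cannot be told apart.

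Leukocytes read their surroundings through receptors that hand the signal to tyrosine kinases inside the cell. CD247, the zeta chain of the T-cell receptor complex, carries short tyrosine motifs called ITAMs, and SYK is a kinase that docks on ITAMs once they are phosphorylated. LCP2, also called SLP-76, is an adaptor that is phosphorylated by SYK or its relative ZAP70 and holds the next enzymes of the cascade together. PTPRC, or CD45, is the tyrosine phosphatase of the leukocyte surface and keeps Src family kinases ready to act. CSF1R is the receptor tyrosine kinase through which macrophages and microglia survive and divide. Macrophages enter the neural tube early in development, whereas mature T cells come later, and in mammals SYK and LCP2 also serve platelets, whose counterparts in birds are the nucleated thrombocytes.

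Total counts ran from 21801247 to 29002315 per library. In each group, 1 library lacked 57 loci that the other 12 libraries held (under 0.05 CPM against at least 0.5 CPM, the scaled read count defined below). These were replicate 2 of nicotine day 7, replicate 2 of vehicle day 7, replicate 4 of nicotine day 5 and replicate 2 of vehicle day 5, and the labels name nothing that would set them apart. CHAT, the acetylcholine-synthesising enzyme of motor neurons, was present in every library at 0.757 to 3.30 CPM, and it was the only gene of the spinal cord list with a symbol in the matrix. The 11 macrophage and microglia loci of the matrix were also present in every library when summed, at 10.3 to 13.7 CPM in nicotine day 7, 10.8 to 13.1 CPM in vehicle day 7, 9.15 to 14.3 CPM in nicotine day 5 and 11.5 to 18.9 CPM in vehicle day 5. Lymphocyte loci were scarce: 3 of them summed to between 0 and 1.62 CPM per library, and ZAP70, the T-cell relative of SYK, was at 0 in 6 libraries.

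Levels are in CPM, the reads of a gene per 1000000 reads of its library, with each total corrected for composition by its TMM factor. Replicates are in the order 1 to 4, and the labels give these numbers no link between groups. Fold changes on the log2 scale come from edgeR's quasi-likelihood test, with their standard error (SE) and a p-value adjusted over all 18394 loci tested. A value is called where the adjusted p is under 0.05. Shares and medians over the identifiers of the authors' tables count only identifiers with an adjusted value. All 4 genes passed the filter on low counts.

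CD247 is the ITAM-bearing chain. It had 1.02, 1.67, 0.499 and 1.02 CPM in nicotine day 7 and 0.962, 1.04, 0.503 and 0.334 CPM in vehicle day 7. At day 5 it had 2.01, 1.02, 0.805 and 2.57 CPM in nicotine libraries, against 3.85, 2.78, 3.58 and 1.75 CPM in vehicle libraries. The vehicle libraries all lay lower at day 7 than at day 5 without overlap, as in 18.9% of loci tested. The nicotine libraries overlapped between the days and with vehicle of the same day. Means were 1.05 ± 0.480 CPM in nicotine day 7, 0.710 ± 0.345 in vehicle day 7, 1.60 ± 0.831 in nicotine day 5 and 2.99 ± 0.945 in vehicle day 5 (SD, n = 4 each). From high to low the order was vehicle day 5, nicotine day 5, nicotine day 7 and vehicle day 7, and each group overlapped the next. These levels rest on few reads, 8 to 86 per library, and in every group the variance between libraries was 4.31 to 10.2 times what counting alone gives.

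PTPRC is the phosphatase of the leukocyte surface. Nicotine day 7 libraries had 5.94, 6.65, 6.71 and 6.95 CPM and vehicle day 7 libraries 5.65, 5.65, 4.20 and 4.89 CPM. At day 5 the values were 7.50, 6.27, 4.12 and 5.10 CPM with nicotine and 6.94, 6.91, 9.04 and 5.89 CPM with vehicle. The day 7 treatments did not overlap, nicotine being higher, as in 2.84% of loci tested. The vehicle libraries did not overlap between the days, day 7 being lower, as in 18.9% of loci. Means were 6.56 ± 0.437 CPM in nicotine day 7, 5.10 ± 0.702 in vehicle day 7, 5.75 ± 1.46 in nicotine day 5 and 7.19 ± 1.32 in vehicle day 5 (SD, n = 4 each). From high to low the groups ran vehicle day 5, nicotine day 7, nicotine day 5 and vehicle day 7, each overlapping the next. PTPRC had the most reads of the 4, 87 to 197 per library. Its variance between libraries was 8.45 times counting error in nicotine day 5 and 5.57 times in vehicle day 5. At day 7 it was 0.763 times in nicotine and 2.71 times in vehicle.

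SYK is the kinase that docks on phosphorylated ITAMs. Its values were 1.38, 1.05, 1.22 and 1.02 CPM in nicotine day 7 and 0.922, 1.64, 1.51 and 1.59 CPM in vehicle day 7. Nicotine day 5 libraries had 1.80, 1.97, 2.22 and 5.05 CPM, against 2.73, 1.95, 1.01 and 1.95 CPM in vehicle day 5. Replicate 4 of nicotine day 5 lay far above every other library, and it is 1 of the 4 libraries that lack the shared loci. The nicotine libraries did not overlap between the days, day 7 being lower, as in 17.6% of loci tested. Means were 1.17 ± 0.169 CPM in nicotine day 7, 1.41 ± 0.332 in vehicle day 7, 2.76 ± 1.54 in nicotine day 5 and 1.91 ± 0.705 in vehicle day 5 (SD, n = 4 each), from 22 to 116 reads per library. Nicotine day 5 was highest, then vehicle day 5, vehicle day 7 and nicotine day 7, and neighbours in that order overlapped. Between nicotine day 5 libraries the variance was 20.4 times counting error, against 5.71 times in vehicle day 5 and 0.638 times in nicotine day 7.

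LCP2 is the adaptor. It had 2.00, 1.13, 1.04 and 1.99 CPM in nicotine day 7 and 2.04, 1.45, 0.940 and 1.84 CPM in vehicle day 7. Nicotine day 5 libraries had 1.43, 1.30, 0.994 and 1.31 CPM, against 3.00, 2.78, 2.80 and 2.80 CPM in vehicle day 5. All 4 vehicle day 5 libraries lay above all 12 others, and the share of all loci that do so was not counted. In pairs of groups, 2.07% of loci were lower without overlap with nicotine at day 5, and 18.9% at day 7 in vehicle. Means were 1.54 ± 0.529 CPM in nicotine day 7, 1.57 ± 0.486 in vehicle day 7, 1.26 ± 0.187 in nicotine day 5 and 2.85 ± 0.104 in vehicle day 5 (SD, n = 4 each). The groups other than vehicle day 5 overlapped one another. The vehicle day 5 libraries held 61 to 77 reads each and differed by less than counting alone gives on average, with a variance of 0.0868 times counting error. The variance was 0.611 times counting error in nicotine day 5, but 4.49 times in nicotine day 7 and 4.22 times in vehicle day 7.

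**Figure D1:**
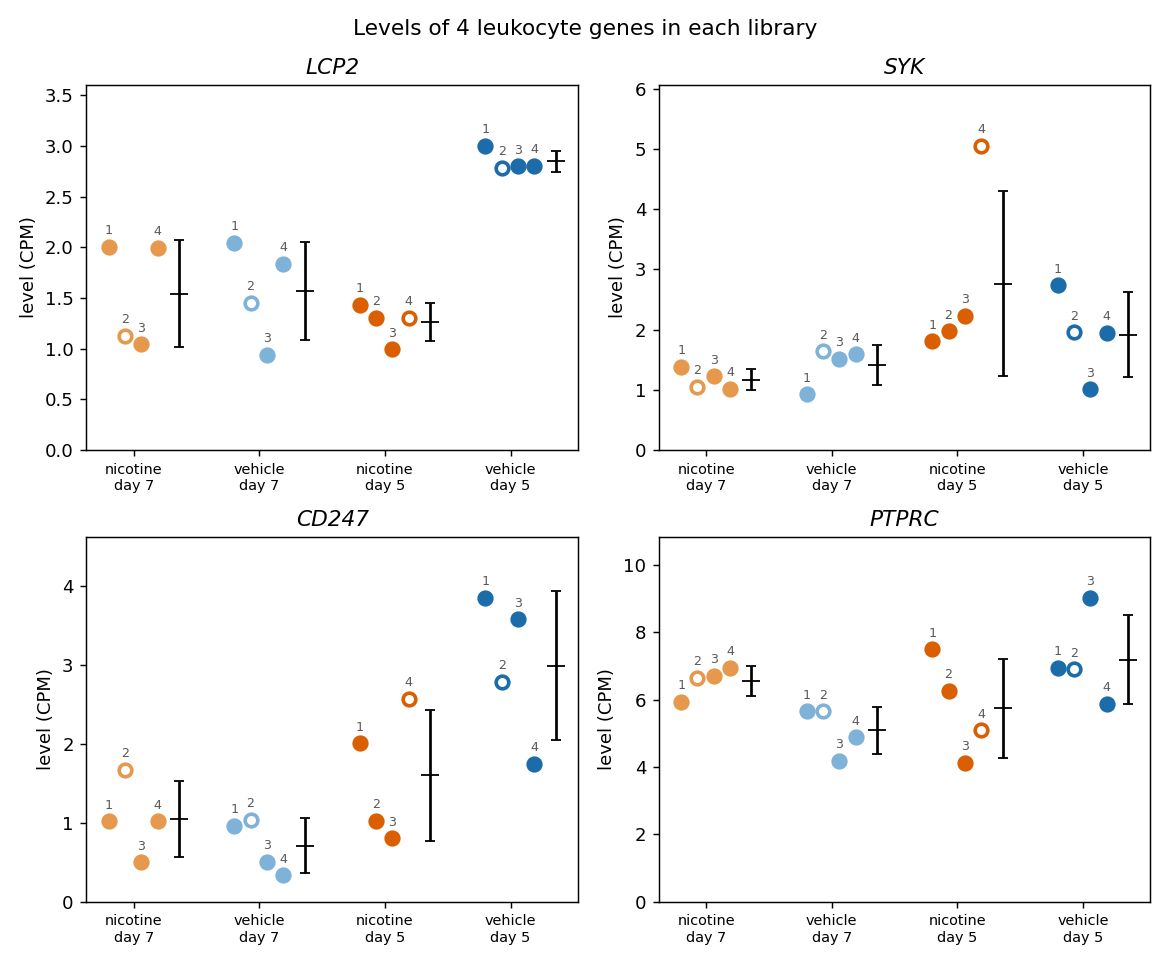
Level in CPM (vertical axis, from 0) of LCP2, SYK, CD247 and PTPRC in each of the 16 libraries. Points carry the replicate number, open points are the 4 libraries that lack 57 shared loci, and the black mark is the mean with its SD (n = 4). LCP2 in vehicle day 5 sits at 2.78 to 3.00 CPM, and 1 nicotine day 5 library has 5.05 CPM of SYK.

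The 4 genes did not move as a block across libraries. Vehicle day 5 had the highest mean of LCP2, CD247 and PTPRC, whereas SYK was highest in nicotine day 5. Replicate 3 of nicotine day 5 was the lowest of its group for LCP2, CD247 and PTPRC, but the second highest for SYK. Replicate 3 of vehicle day 7 was the lowest of its group for LCP2 and PTPRC and the second lowest for CD247. As a spread over the 16 libraries, log2 CPM varied around the gene's own mean by a root mean square of 0.97 for CD247, 0.59 for SYK, 0.54 for LCP2 and 0.29 for PTPRC.

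**Figure D2:**
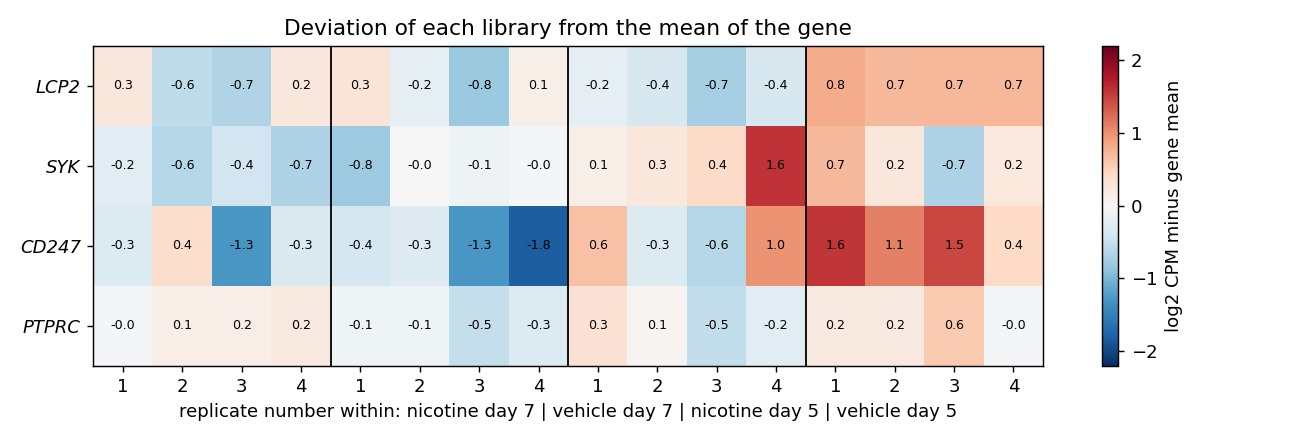
Deviation of log2 CPM from the gene's mean over all 16 libraries, 1 column per library and 1 row per gene, with each value printed in its cell and black lines between groups. The 4 vehicle day 5 columns are above the mean for LCP2 and CD247, and vehicle day 7 replicate 4 is the lowest for CD247.

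Between nicotine and vehicle at day 5, 4 of the 5 genes had a log2 fold change below 0 in the authors' deposited table. The median over all identifiers with an adjusted value in that table was -0.01, and the share below 0 was not counted. CSF1R stood at -0.46 there with an adjusted p of 0.00694. Among the 11826 identifiers with an adjusted value in that table, 1.96% were called lower. The table puts PTPRC at -0.34 (adjusted p = 0.330). LCP2 at -1.20, CD247 at -1.02 and SYK at 0.43 were read as having no adjusted value there, by the rule given under processing. The authors' unadjusted p was 0.000134 for LCP2, 0.0218 for CD247 and 0.243 for SYK. A missing adjusted value is neither a pass nor a failure at the threshold. On the counts, edgeR gave LCP2 -1.17 (SE 0.27, adjusted p = 0.217), CD247 -0.90 (SE 0.45, adjusted p = 0.361), PTPRC -0.32 (SE 0.18, adjusted p = 0.420) and SYK 0.53 (SE 0.35, adjusted p = 0.492). LCP2 was the 1 gene of the 4 whose nicotine and vehicle libraries did not overlap, as in 2.07% of all loci tested in that direction. SYK came to 0.05 without replicate 4 of nicotine day 5. Over all loci edgeR called 0 of 18394 at this day, with 2747 at an unadjusted p under 0.05, whereas DESeq2 called 267.

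At day 7 the authors' table called none of the 5 genes, and 0.395% of all identifiers. It gave CSF1R -0.0007, LCP2 -0.02, SYK -0.25, PTPRC 0.37 and CD247 0.56, each with an adjusted p of 0.9996. The edgeR values were LCP2 -0.02 (SE 0.27), SYK -0.27 (SE 0.36), PTPRC 0.36 (SE 0.18) and CD247 0.57 (SE 0.47), each with an adjusted p of 1. CD247 came to 0.24 without replicate 2 of nicotine day 7 and to 0.32 without replicate 4 of vehicle day 7. PTPRC was the gene whose groups did not overlap, nicotine being higher, as in 2.84% of loci tested. Across all loci edgeR called 0 here as well, with 858 at an unadjusted p under 0.05, and DESeq2 called 32.

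Over the days, all 5 genes had a log2 fold change below 0 at day 7 against day 5 in vehicle embryos. The median over all identifiers was 0.04, and the share of identifiers below 0 was not counted. The authors' table called 2 of the 5 genes lower, CD247 at -2.13 (adjusted p = 2.82e-05) and LCP2 at -0.85 (adjusted p = 0.0174). Of all identifiers, 18.7% were called lower. PTPRC stood at -0.48 (adjusted p = 0.0635), SYK at -0.43 (adjusted p = 0.415) and CSF1R at -0.10 (adjusted p = 0.50) in that table. On the counts, edgeR called CD247 at -2.06 (SE 0.47, adjusted p = 0.00310), LCP2 at -0.86 (SE 0.27, adjusted p = 0.0213) and PTPRC at -0.50 (SE 0.18, adjusted p = 0.0462), against 19.6% of all loci called lower. SYK was not called (-0.43, SE 0.35, adjusted p = 0.373). The same 3 genes had day 7 libraries that all lay below the day 5 libraries, as had 18.9% of loci. The PTPRC call did not hold in 20 of 23 alternatives, where its adjusted p ran up to 0.177. The LCP2 call was lost without replicate 2 of vehicle day 7 (-0.83, adjusted p = 0.0532) and without replicate 3 of that group (-0.68, adjusted p = 0.0617), and that of CD247 was kept in every alternative.

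In nicotine embryos the comparison of day 7 with day 5 gave another order of genes. The authors' table called SYK lower at -1.11 (adjusted p = 0.0139) and CSF1R higher at 0.36 (adjusted p = 0.00233), with 15.3% of identifiers called lower and 15.9% called higher. LCP2 at 0.32 (adjusted p = 0.501), PTPRC at 0.23 (adjusted p = 0.469) and CD247 at -0.56 (adjusted p = 0.395) were not called. The edgeR fit called SYK at -1.23 (SE 0.36, adjusted p = 0.0174), against 16.5% of all loci called lower. It did not call LCP2 at 0.29 (SE 0.27, adjusted p = 0.475), PTPRC at 0.19 (SE 0.18, adjusted p = 0.487) or CD247 at -0.60 (SE 0.46, adjusted p = 0.364), which ran from -0.90 without replicate 2 of nicotine day 7 to -0.27 without replicate 4 of nicotine day 5. SYK was also the 1 gene whose day 7 and day 5 libraries did not overlap, day 7 being lower, as in 17.6% of loci. Without replicate 4 of nicotine day 5 its change was -0.77 and no longer called (adjusted p = 0.0756).

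The difference of the nicotine effect between the days, day 7 minus day 5, was tested directly. No gene of the 5 passed in the authors' table, which gave PTPRC 0.71 (adjusted p = 0.180) and CSF1R 0.46 (adjusted p = 0.0558). LCP2 at 1.17, CD247 at 1.58 and SYK at -0.69 were read as having no adjusted value there. The table called 2.25% of the 12651 identifiers that have one. The edgeR differences were 1.15 for LCP2 (SE 0.39, adjusted p = 0.276), 1.47 for CD247 (SE 0.65, adjusted p = 0.347), 0.69 for PTPRC (SE 0.26, adjusted p = 0.307) and -0.80 for SYK (SE 0.50, adjusted p = 0.487). The SYK difference was -0.33 without replicate 4 of nicotine day 5. The edgeR fit called 0 of 18394 loci, with 2521 at an unadjusted p under 0.05, and DESeq2 called 232. The 5 comparisons share libraries. The vehicle day 5 group enters the day 5 comparison, the vehicle comparison of days and the difference. The values of LCP2 and CD247 in these are therefore not separate observations. The nicotine day 5 group likewise enters the day 5 comparison, the nicotine comparison of days and the difference. The values of CSF1R and SYK in those are not separate observations either.

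**Figure D3:**
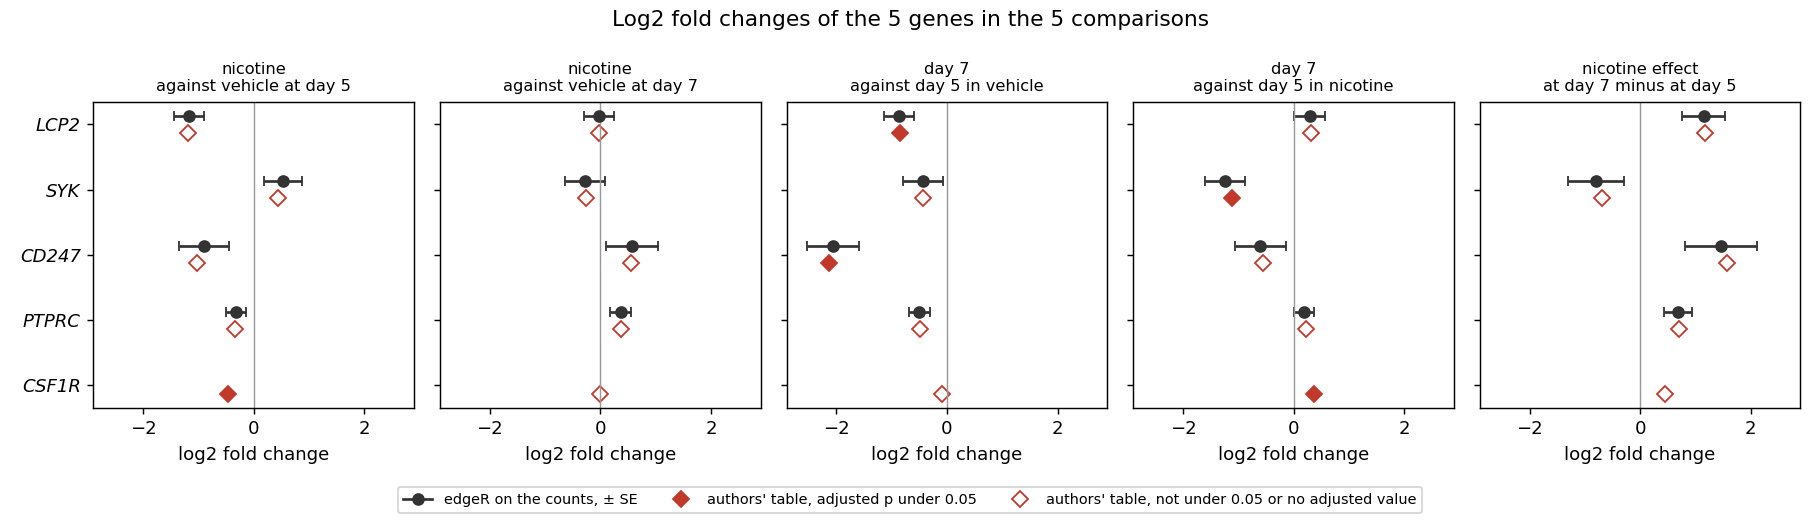
Log2 fold change (horizontal axis) of the 5 genes in the 5 comparisons, 1 panel each. Circles are edgeR values on the counts with ± 1 SE, diamonds are values of the authors' tables, filled where their adjusted p is under 0.05, and CSF1R has diamonds only. The filled diamonds are CSF1R at -0.46 (nicotine, day 5) and 0.36 (days, nicotine), LCP2 at -0.85 and CD247 at -2.13 (days, vehicle) and SYK at -1.11 (days, nicotine).

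CSF1R, the macrophage receptor, can be followed only through those tables, which hold no level and no error. Its values were -0.46 and -0.0007 for nicotine at day 5 and day 7, and -0.10 and 0.36 for the days in vehicle and in nicotine. A standard error worked out from the authors' fold change and p-value came to about 0.10 in these 4 comparisons and 0.14 for the difference of effects. Over the same 4 it came to 0.21 for PTPRC, 0.31 to 0.32 for LCP2, 0.37 to 0.39 for SYK and 0.44 to 0.48 for CD247. How its 4 libraries of a group spread was not analysed here. In RefSeq CSF1R lies next to PDGFRB, a related receptor tyrosine kinase of pericytes and mesenchyme, and the strand setting of the counts is not given in the sources used here. In the authors' tables PDGFRB stood at 0.03 for nicotine at day 5 (adjusted p = 0.919) and was called higher at day 7 against day 5 in vehicle at 1.20 (adjusted p = 6.19e-12) and in nicotine at 0.90 (adjusted p = 5.11e-07). HMGXB3, on its other side, was called in none of the 5, with values of -0.01 to 0.12.

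The 4 libraries that lack 57 loci were set against the other 12 within groups, a contrast on which the choice of genes did not rest. None of the 4 genes differed between the classes past the threshold. The log2 difference, lacking minus not lacking, was 0.68 for CD247 (SE 0.32, edgeR adjusted p = 0.724), 0.43 for SYK (SE 0.27, adjusted p = 0.925), -0.16 for LCP2 (SE 0.23, adjusted p = 0.994) and -0.01 for PTPRC (SE 0.15, adjusted p = 0.998). Over all loci 2.55% were called. The SYK value came to 0.05 without replicate 4 of nicotine day 5. With a term for this class in DESeq2, the log2 fold changes at day 5 were -1.20 for LCP2, -1.02 for CD247, -0.34 for PTPRC and 0.43 for SYK, which to 2 decimals are the values of the authors' table.

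Other leukocyte signalling genes were taken as 8 lists that leave the 5 genes out. Of their 191 symbols, 95 are in the authors' tables. For nicotine against vehicle at day 5, 47 of them had an adjusted value, 0 were called higher and 1 lower, where 0.761% and 1.96% of all identifiers were. Their log2 fold changes were below 0 in 33 and above 0 in 14, with a median of -0.14 against -0.01 over all identifiers with an adjusted value. The gene called was RASGRP1, which switches on Ras below antigen receptors, at -0.66 (adjusted p = 0.0336). BCL10, a scaffold between those receptors and NF-kappaB, stood at -0.39 (adjusted p = 0.0748), and PIK3CG, a phosphoinositide kinase of leukocytes, at -0.61 (adjusted p = 0.0841). In the macrophage and microglia list 0 of 10 with an adjusted value were called and the median was 0.02, with the cathepsin CTSB at 0.37 (adjusted p = 0.0632).

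At day 7, 95 of the 95 had an adjusted value and none was called between nicotine and vehicle, where 0.395% of all identifiers were, with a median of 0.03 against 0.01. For day 7 minus day 5 of the nicotine effect, 0 of 53 were called, where 2.25% of all identifiers were, the values being above 0 in 35 and below 0 in 18, with a median of 0.17 against 0.04. These 53 include the genes of the day 5 comparison and share its libraries.

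Between the days the lists changed in both directions. In vehicle embryos 14 of 94 were called higher and 12 lower at day 7, where 18.1% and 18.7% of all identifiers were, with a median of -0.18 against 0.04 over all identifiers. Among the adaptors and effectors, where LCP2 belongs by function, 5 of 23 were higher and 7 lower. VAV2 rose by 0.95 (adjusted p = 5.92e-11), while BCL10 fell by 0.89 (adjusted p = 4.96e-10) and the adaptor SKAP2 fell by 0.71 (adjusted p = 9.85e-10). Among kinases related to SYK or acting on ITAMs, FYN rose by 0.39 (adjusted p = 0.0347) and LCK fell by 0.19 (adjusted p = 0.0385), of 8 with a value. The phosphatase PTPN2 fell by 0.95 (adjusted p = 1.40e-13) and the lipid phosphatase INPP5D rose by 0.32 (adjusted p = 0.0102), of 8. None of the 3 genes with a symbol in the ITAM and T-cell receptor list (CD3E, CTLA4 and CD79B) was called. CD3E stood at -0.37 (adjusted p = 0.226). Of 30 macrophage and microglia genes 4 were higher and 2 lower: CTSB rose by 0.51 (adjusted p = 0.000165), whereas the lysosomal protease LGMN fell by 0.36 (adjusted p = 0.00193) and LY86 fell by 0.68 (adjusted p = 0.00213). Of 12 trafficking genes the receptor CD40 rose by 0.68 (adjusted p = 0.0145) and the actin-bundling LCP1 fell by 0.36 (adjusted p = 0.0272). In the list of CSF1 receptor ligands and macrophage growth, 1 of 3 was called, the cytokine signalling inhibitor SOCS3, which rose by 0.83 (adjusted p = 0.0451). The 3 were SOCS3, KITLG and SOCS1, and none of them is a ligand of CSF1R.

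In nicotine embryos 10 of 92 were called higher and 6 lower at day 7, where 15.9% and 15.3% of all identifiers were, with a median of -0.01 against 0.01. The adaptors and effectors had 6 higher and 2 lower of 23, led by WIPF1, a partner of the actin regulator WASP, which rose by 1.31 (adjusted p = 5.62e-12), and the phosphatase UBASH3B, which rose by 0.995 (adjusted p = 7.70e-08). SKAP2 fell by 0.50 (adjusted p = 3.89e-05), LCK by 0.38 (adjusted p = 1.24e-05) and PTPN2 by 0.55 (adjusted p = 3.71e-05), while PTPN11, a phosphatase of growth factor and cytokine receptors, rose by 0.41 (adjusted p = 0.00895). In the macrophage list 0 of 28 were higher and 1 was lower, NCF1, a subunit of the NADPH oxidase, which fell by 1.13 (adjusted p = 0.00952). The integrin chain ITGA4 rose by 0.42 (adjusted p = 0.0291), the 1 gene called of 12 trafficking genes. No gene was called of the ITAM list (3) or the CSF1 receptor list (3). All values in these 4 paragraphs on the lists are those of the authors' deposited tables.

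**Figure D4:**
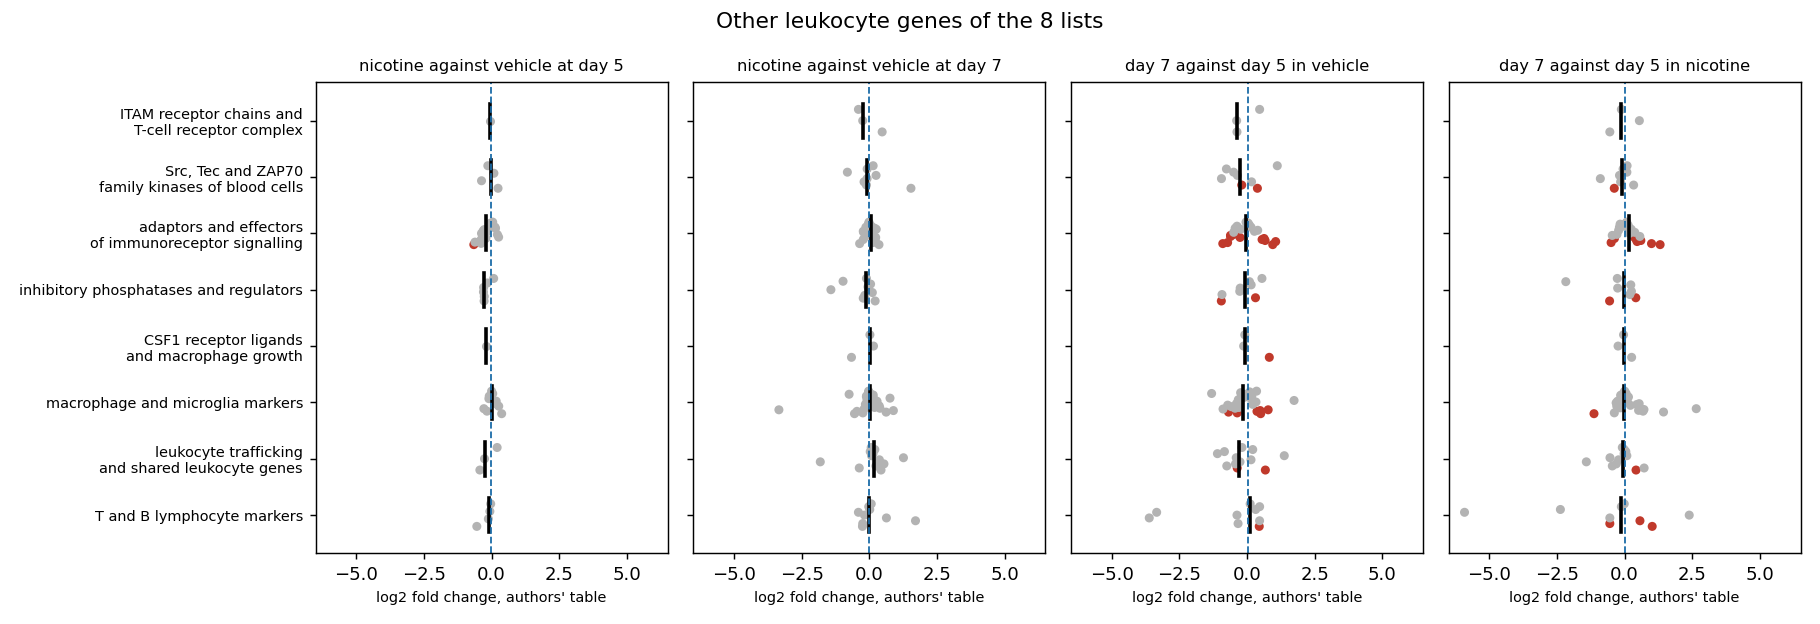
Log2 fold change in the authors' tables (horizontal axis) of genes in 8 leukocyte lists, 1 point per gene with an adjusted value, for 4 comparisons. Red points have an adjusted p under 0.05, black bars are list medians and the dashed line is the median over all identifiers with an adjusted value. At day 5, 1 point is red, RASGRP1 at -0.66, and at day 7 none is, whereas both comparisons of days have red points on both sides.

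The count matrix holds 29 loci of these lists under their symbols, 20 of them tested. For nicotine at day 5, 15 of the 20 were below 0 and 5 above, and edgeR called 0. Their median was -0.19, against 0.03 over all 18394 loci tested, whose share below 0 was not counted. At day 7 the median was 0.13, against 0.01 over all loci tested, and 0 were called. At day 7 against day 5 edgeR called SOCS3 higher in vehicle and NCF1 lower in nicotine, 1 of the 20 in each. Over all 18394 loci, 3231 were called higher in vehicle and 3034 lower in nicotine. Markers of other cells in the piece were counted in the authors' tables. At day 5, 2 of 9 spinal cord neuron and progenitor genes were called higher with nicotine (median 0.51), with 7 above 0 and 2 below. CHAT, left out of the 9 for lack of an adjusted value, stood at -0.97 (authors' unadjusted p = 0.00292). Its libraries had 0.757 to 2.01 CPM in nicotine day 5 and 2.46 to 3.30 CPM in vehicle day 5, without overlap. In that direction 2.07% of loci tested did not overlap. Called higher were 0 of 13 endothelium genes (median 0.07), 0 of 5 erythroid genes (median 0.05) and 0 of 5 epidermis genes (median -0.01). The same held for 0 of 2 thrombocyte genes (median -0.32) and 0 of 13 cartilage, mesenchyme and muscle genes (median -0.04). At day 7 against day 5 in vehicle, 8 of 14 cartilage, mesenchyme and muscle genes were called higher and 2 lower (median 0.73), and 3 of 14 endothelium genes higher and 1 lower (median 0.24). Of 12 spinal cord genes 3 were higher and 3 lower, of 7 erythroid genes 1 and 1, and of 7 epidermis genes 0 and 1. In nicotine, 5 of 14 cartilage, mesenchyme and muscle genes and 4 of 14 endothelium genes were called higher, with none lower (medians 0.24 and 0.15), while 5 of 7 epidermis genes were lower and 0 higher (median -0.84). Of 12 spinal cord genes 1 was higher and 4 lower (median 0.27), and of 7 erythroid genes 1 and 1 (median 0.14). Over all identifiers, 0.761% were called higher and 1.96% lower at day 5, 18.1% and 18.7% between the days in vehicle, and 15.9% and 15.3% in nicotine. The part of cell makeup in the values of the 5 genes was not tested.

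The loci whose level followed each gene most closely over the 16 libraries were found among 755 others with a symbol, by the root mean square difference of log2 CPM, each centred on its own mean. For LCP2 these were TMEM71 (0.33), DGKB (0.38) and ICE2 (0.42), set against its own spread of 0.54. SYK was nearest to AMDHD1 (0.43), PGR (0.44) and CHAC1 (0.45), with a spread of 0.59. PTPRC was nearest to MMACHC (0.22), ICE2 (0.25) and DGKB (0.27), with a spread of 0.29, so that DGKB and ICE2 stand in both lists. CD247 had no locus nearer than 0.65, reached by ARMC4, KIAA1456 and APOH, against a spread of 0.97. None of the 4 genes was among the 3 nearest loci of another.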

How the data were processed

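RNA was sequenced from 16 embryos. The submitters' processing notes name HISAT2 2.0.5 and Bowtie2 2.3.2, then StringTie 1.3.3b, DESeq2, Trim Galore 0.4.4 and FastQC 0.11.5, with no roles. The build, the annotation and whether strand was used are not stated there. The authors deposited a matrix of whole-number counts for 26943 loci and 5 tables of log2 fold change, linear fold ratio, p-value and adjusted p-value. In 4 tables an adjusted p of exactly 1 was read as no adjusted value.

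The test was edgeR 4.0.16 under R 4.3.3 on these counts (filterByExpr, TMM, quasi-likelihood, Benjamini-Hochberg) in 1 fit of 4 group means. DESeq2 1.42.0 was an alternative, and the steps were tested on simulated counts. The 1 row without a locus name was left out. No chromosome, coordinate or sequence is given.

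The genes and 14 gene lists were chosen with earlier results of these data known. Named were, per list and comparison, up to 3 genes with the smallest p, and per gene the 3 most alike loci. PTPRC was tested although the plan did not foresee its row. Alternatives were RLE normalisation, no filter, DESeq2, a replicate block, only the libraries compared, a term for the 4 libraries, each library left out, and, added after seeing the data, DESeq2 with that term.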

Additional observations from a re-analysis of the deposited data

Results flagged for a closer look

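Within groups of 4 libraries, 2 values stood apart from the rest by the distance to their nearest neighbour, set against the range of the group. SYK in nicotine day 5 replicate 4 was 5.05 CPM, while the other libraries of that group had 1.80 to 2.22 CPM, and the gap was 0.870 of the range. LCP2 in vehicle day 5 replicate 1 was 3.00 CPM, with the next at 2.80 CPM and the lowest at 2.78 CPM, so the gap of 0.918 lies in a narrow range. Chance passes the limit used (Dixon's critical value at 95%) in about 1 in 20 groups, and 4 genes in 4 groups were looked at. The library of the SYK value is 1 of the 4 that lack 57 loci. The difference of that class from the other libraries within groups was 0.43 on the log2 scale for SYK (SE 0.27, edgeR adjusted p = 0.925), and 0.05 without this library.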

How the results depend on the processing

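For LCP2, SYK, CD247 and PTPRC, 504 of the 536 recomputed values kept direction and side of the threshold, 23 lost the call and 9 changed sign. The sign changes were those of LCP2 for nicotine at day 7 (-0.22 to 0.13 with 1 library left out) and of PTPRC for the class of libraries (-0.0901 to 0.0519). The lost calls were SYK (1), LCP2 (2) and PTPRC (20), as described above. Loci called for nicotine at day 5 numbered 0, against 267 with DESeq2, 299 with DESeq2 and the class term, 1 with the class term, 1 with the replicate block and 0 to 3 with 1 library left out. At day 7 they were 0, against 32 with DESeq2, 183 with its class term, 5 from the compared libraries and 0 to 2. For the difference between days they were 0, against 232 with DESeq2, 267 with its class term, 1 with the class term in edgeR, 1 with the replicate block and 0 to 5. DESeq2 gave no adjusted p to LCP2, SYK and CD247 at day 5 or for that difference. At an adjusted p under 0.1 the lists held 9 called genes in place of 3 at day 5, and 3 in place of 1 for the difference. Same-numbered libraries of different groups had correlated deviations of -0.23 to 0.35, over 0.1 in 6 of 24 pairs. For differently numbered libraries the range was -0.25 to 0.39, over 0.1 in 15 of 72 pairs. The largest same-numbered values, 0.34 to 0.35, were between libraries that lack the 57 loci. Such correlations cannot decide whether the numbers pair the samples, because that class of libraries weighs on them. The cause of the changes in call, sign and number of loci called was not tested. Among values not called, leaving out 1 library moved PTPRC for nicotine at day 5 between -0.50 and -0.21, SYK for the days in vehicle between -0.64 and -0.22, and for the days in nicotine LCP2 between 0.15 and 0.44 and PTPRC between 0.07 and 0.35. Reads per library were 8 to 86 for CD247, 21 to 77 for LCP2, 22 to 116 for SYK and 87 to 197 for PTPRC.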

Other observations

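Lymphocyte and thrombocyte genes were also followed in the authors' deposited tables. Several of them act in other cells too, and whether their changes come from blood cells was not tested. At day 7 against day 5 in nicotine embryos, BACH2, a transcription factor of B cells, rose by 1.02 (adjusted p = 1.84e-06) and EBF1, which also acts in B cells and in neurons, rose by 0.57 (adjusted p = 0.0376), while TCF7, a transcription factor of T cells and of Wnt signalling, fell by 0.55 (adjusted p = 0.00221), of 9 genes in the list. Over all identifiers 15.9% were called higher and 15.3% lower in nicotine, and 18.1% and 18.7% in vehicle. In vehicle embryos BACH2 was the 1 gene called, at 0.46 (adjusted p = 0.0464). Of 6 thrombocyte genes 1 was called higher and 1 lower in each treatment. TBXAS1, the thromboxane synthase, fell by 1.03 in nicotine (adjusted p = 0.0241) and by 1.21 in vehicle (adjusted p = 0.00571). F13A1, a clotting factor subunit also made by macrophages, rose by 1.11 in nicotine (adjusted p = 0.00154) and stood at 0.64 in vehicle (adjusted p = 0.0820), and the ADP receptor P2RY1 rose by 0.56 in vehicle (adjusted p = 0.00172). The 2 thrombocyte loci of the matrix summed to 1.82 to 2.72 CPM in nicotine day 7, 1.78 to 2.85 CPM in vehicle day 7, 1.04 to 2.82 CPM in nicotine day 5 and 1.58 to 2.35 CPM in vehicle day 5, groups that overlapped.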
